A study of Mus musculus with 12 samples.

Results

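The genes described here encode 10 receptors through which analgesic drugs or endogenous pain-relieving transmitters act on sensory neurons. They are the 4 opioid-family receptors (Oprm1, Oprd1, Oprk1 and Oprl1), both subunits of the GABA-B receptor (Gabbr1 and Gabbr2), the cannabinoid receptor Cnr1, the alpha-2 adrenoceptors Adra2a and Adra2c, and the muscarinic acetylcholine receptor Chrm2. They were taken by gene symbol from the 23238 symbols of the count tables, and all 10 were found and passed the filter on low counts. RNA came from dorsal root ganglia of lumbar levels 3 to 5 of C57BL/6 mice at postnatal week 8, which house the somata of the sensory neurons that project through the sciatic nerve. The 4 groups, with 3 libraries each, were females after sciatic nerve injury (SNI), females after a sham operation, males after SNI and males after a sham operation. No allele or agent is labelled in any group, and the sources used here do not give the time from operation to dissection, the form of the injury or any pooling of ganglia or animals. The libraries read the 3′ ends of polyadenylated transcripts.

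All 10 products are receptors, or subunits of a receptor, that couple to inhibitory G proteins of the Gi and Go classes. When bound by their ligands they lower cyclic AMP through adenylyl cyclase, inhibit voltage-gated calcium channels in the central terminals of sensory neurons and can open inwardly rectifying potassium channels, so that less transmitter reaches the spinal cord. Sensory neurons of the ganglion are a known site of action of morphine, baclofen, cannabinoids and clonidine-like drugs, and a fall of opioid receptors in these neurons after nerve injury has often been described. In ganglion tissue as a whole, fewer cells of a type and less RNA per cell cannot be told apart.

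Levels are given in CPM, the count of a gene divided by the scaled total of its library. They count transcript 3′ ends, are not divided by transcript length, and are compared between libraries for the same gene, not between genes. Totals ran from 12476606 to 15520746 counts, so that 3 counts in a library stand for 0.191 to 0.244 CPM. Whether the 3 replicates of each group were separate animals is not labelled, so the p-values rest on a spread between libraries that may be technical. Atf3, a transcription factor induced in axotomised neurons, lay between 43.6 and 56.7 CPM in the sham libraries and between 275 and 361 CPM in the SNI libraries, and Xist and Ddx3y matched the labelled sexes in all 12. Male SNI replicate 2, and to a lesser degree Female sham replicate 2, stood apart from the other 10 libraries on the first principal component, which held 23.9% of the variance. Receptor calls that changed when either was left out are given with and without it.

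Of the 10 receptor genes, 1 fell after injury, the nociceptin receptor gene Oprl1, and none rose, in the comparison of SNI with sham averaged over the sexes. In the same comparison 6.52% of the 15036 tested genes were called at an adjusted p below 0.05. Of all tested genes, 3.78% rose and 2.73% fell. The estimate was below 0 for 9 of the 10 receptors, with a median log2 change of -0.36, while 49.5% of all tested genes had an estimate below 0 and their median was 0.00. A low median was not particular to the receptors. It was -0.40 for nociceptor markers and -0.48 for mechanoreceptor and proprioceptor markers, while that of pan-neuronal markers was -0.09. By edgeR's quasi-likelihood test an unadjusted p under 0.05 was found for 3 of the 10 receptors and 2764 of the 15036 tested genes. The members were named with earlier results of these data known, so the counts describe the list and no test was made over it.

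**Figure D1:**
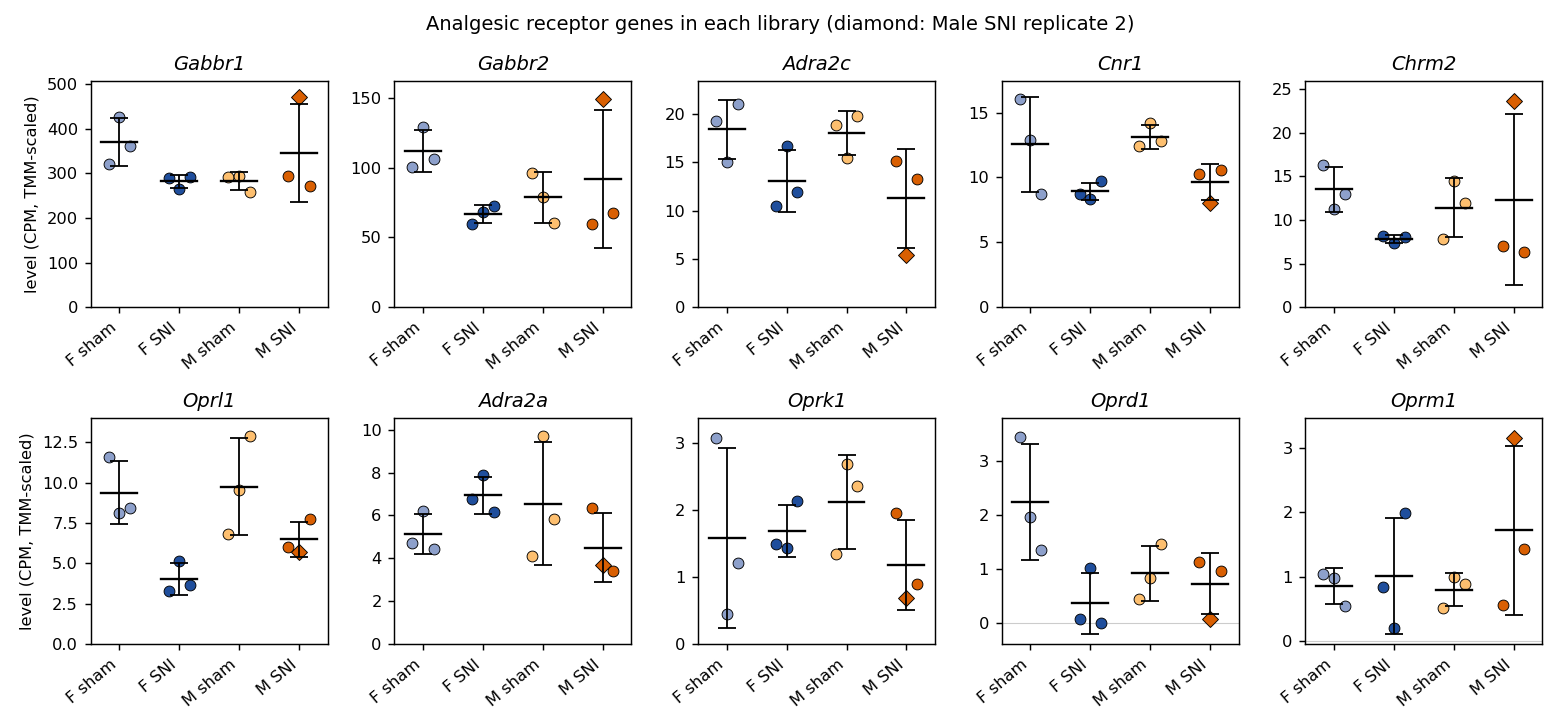
Level of each receptor gene in CPM in all 12 libraries (points), with the mean and SD of each group of 3 as bars (F, females; M, males); each panel has its own linear axis. Oprl1 is lower in the 3 Female SNI libraries (3.25 to 5.17 CPM) than in the 3 Female sham libraries (8.09 to 11.6 CPM), and the diamond, Male SNI replicate 2, is the highest library for 4 genes.

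Oprl1 encodes the receptor of nociceptin, an opioid-like peptide that binds the classical opioid receptors poorly. It lies on chromosome 2 (GRCm38.p6, bases 181715000 to 181720985, plus strand). In Female sham replicates 1 to 3 its level was 11.6, 8.09 and 8.42 CPM, and in Female SNI replicates 1 to 3 it was 3.25, 5.17 and 3.67 CPM. In Male sham replicates 1 to 3 it was 6.83, 9.57 and 12.9 CPM, and in Male SNI replicates 1 to 3 it was 6.01, 5.68 and 7.74 CPM. The female groups did not overlap. The male groups did, because Male SNI replicate 3 lay above Male sham replicate 1. Averaged over the sexes the log2 change was -0.90 ± 0.21 (SE), with a 95% interval of -1.35 to -0.45 and an adjusted p of 0.0187 by edgeR's quasi-likelihood test with Benjamini-Hochberg adjustment, so that Oprl1 fell by 46.5%.

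In females alone Oprl1 fell by 1.22 ± 0.30 on the log2 scale (adjusted p = 0.0457), from a mean of 9.38 ± 1.94 CPM (SD, 3 libraries) to 4.03 ± 1.01 CPM. In males the estimate was -0.59 ± 0.29 (adjusted p = 0.379), from 9.75 ± 3.02 to 6.48 ± 1.10 CPM. Oprl1 was the 1 receptor called in females, where 2.89% of all tested genes were called (1.6% rose and 1.29% fell). In males, where 2.13% were called (1.65% rose and 0.486% fell), none of the 10 receptors was. The interaction estimate, male change less female change, was 0.63 ± 0.42 (95% interval -0.27 to 1.52, adjusted p = 0.673), so a difference between the sexes was not shown. With 1 library left out, the averaged call was lost in 4 of 12 fits. These left out Female SNI replicate 1 (-0.84, adjusted p = 0.0588), replicate 3 of the same group (-0.87, adjusted p = 0.0570), replicate 1 of Female sham (-0.81, adjusted p = 0.0541) and replicate 3 of Male sham (-0.77, adjusted p = 0.0625). It held without each of the other 8 libraries. The call in females ended without any 1 of the 6 female libraries, Male SNI replicate 1 or Male sham replicate 2, with estimates of -1.44 to -1.04 and adjusted p of 0.0611 to 0.192. It also ended with no filter on low counts (-1.22, adjusted p = 0.0503) and with scaling to pan-neuronal genes (-1.14, adjusted p = 0.103).

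The promoter of Oprl1 is shown beside those of Gabbr1 and Gabbr2 because Oprl1 was the receptor gene that fell and the other 2 encode partners of a single receptor. Each run is the 250 bases before an annotated RefSeq start on GRCm38.p6, written 5′ to 3′ on the gene's strand, and capitals mark GC boxes (GGGCGG or its complement). They lie at chr2:181714766-181715015 on the plus strand for Oprl1, chr17:37045716-37045965 on the plus strand for Gabbr1 and chr4:46991715-46991964 on the minus strand for Gabbr2. For Oprl1 the start used is the earliest in the RefSeq promoter table and lies inside the gene span given above, so the last bases of its run fall within that span.
Oprl1: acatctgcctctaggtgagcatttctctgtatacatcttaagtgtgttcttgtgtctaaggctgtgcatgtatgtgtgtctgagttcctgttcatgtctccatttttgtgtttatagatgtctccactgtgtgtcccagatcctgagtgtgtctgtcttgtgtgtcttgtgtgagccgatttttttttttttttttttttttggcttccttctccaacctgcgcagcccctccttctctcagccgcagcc
Gabbr1: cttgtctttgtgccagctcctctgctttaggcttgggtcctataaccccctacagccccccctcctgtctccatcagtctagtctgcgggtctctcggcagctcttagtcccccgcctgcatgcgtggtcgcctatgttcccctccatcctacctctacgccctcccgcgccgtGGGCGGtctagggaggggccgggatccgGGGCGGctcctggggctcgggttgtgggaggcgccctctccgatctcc
Gabbr2: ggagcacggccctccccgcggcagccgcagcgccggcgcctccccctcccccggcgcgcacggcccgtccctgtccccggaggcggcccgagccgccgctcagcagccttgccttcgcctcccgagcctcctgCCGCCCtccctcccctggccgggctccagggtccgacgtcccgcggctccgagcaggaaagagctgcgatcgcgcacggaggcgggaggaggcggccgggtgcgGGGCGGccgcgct
The Oprl1 run held no GC box and 44.4% G and C, against 66.0% for Gabbr1 and 80.8% for Gabbr2, which held 2 boxes each. The run of Oprd1 (not shown), whose averaged estimate was lower than that of Oprl1 but did not pass, held 80.0% and 4 boxes. The median over all 32851 RefSeq windows was 52.4%. A link between these letters and the changes was not tested. Entries were found for 9 of the 10 receptor genes, with 15 windows in all. GC boxes were in 6 of the 15 windows and in 32.7% of all windows. On both strands, none of the 15 held the cyclic AMP response element TGACGTCA (1.55% of all windows), the AP-1 element TGANTCA (6.75%), the STAT-type element TTCNNNGAA (7.02%) or TCAGCACC, a core of the element bound by the repressor REST (1.32%). As only GC boxes occurred, no searched motifs overlapped, and an absent motif says only that its letters are not in these windows.

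The classical opioid receptors had few counts in every library. Oprm1, which encodes the mu receptor, the target of morphine, was at 1.049, 0.983 and 0.539 CPM in Female sham replicates 1 to 3 and at 0.845, 0.204 and 1.98 CPM in Female SNI replicates 1 to 3. In Male sham replicates 1 to 3 it was at 0.520, 0.995 and 0.891 CPM, and in Male SNI replicates 1 to 3 at 0.569, 3.15 and 1.44 CPM. Its counts ran from 3 to 41 per library, and in females the SNI libraries held both the lowest and the highest value. In males Male SNI replicate 2 was highest and a sham library lowest. The averaged log2 change was 0.66 ± 0.58 (95% interval -0.58 to 1.90, adjusted p = 0.624), and it ranged from 0.20 to 0.90 when 1 library was left out. Oprm1 was the only one of the 10 with an averaged estimate above 0, and in percent its interval ran from -32.9% to 273%. Its value is uncertain for another reason: on chromosome 10 (6758593 to 7038209, plus strand) its exons overlap those of Ipcef1 on the opposite strand, which had 0.445 to 2.18 CPM, and the sources used here do not say whether counting used strand. GENCODE vM21 lists 25 different transcript ends for it.

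Oprd1, which encodes the delta opioid receptor, was at 3.45, 1.97 and 1.35 CPM in Female sham replicates 1 to 3. In Female SNI replicates 1 to 3 it was at 0.0650, 1.02 and 0 CPM, so the female groups did not overlap. It was at 0.446, 0.842 and 1.46 CPM in Male sham replicates 1 to 3 and at 1.14, 0.0768 and 0.958 CPM in Male SNI replicates 1 to 3, which overlapped. The count of 0 in Female SNI replicate 3 allows up to 3 counts, or 0.224 CPM. The 3 Female SNI libraries together held 16 counts of Oprd1 and the 3 Female sham libraries 92. In females the log2 change was -2.60 ± 1.11 (95% interval -4.99 to -0.21, adjusted p = 0.279), the estimate of largest size among the 10 receptors, and it did not pass. Averaged over the sexes it was -1.47 ± 0.77 (adjusted p = 0.342), with a range of -3.03 to -1.19 when 1 library was left out. Its gene lies on chromosome 4 (132110188 to 132144486, minus strand).

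Oprk1, which encodes the kappa receptor, the target of dynorphin, was at 3.07, 0.454 and 1.21 CPM in Female sham replicates 1 to 3 and at 1.496, 1.43 and 2.13 CPM in Female SNI replicates 1 to 3. In Male sham replicates 1 to 3 it was at 1.34, 2.68 and 2.36 CPM and in Male SNI replicates 1 to 3 at 1.95, 0.691 and 0.890 CPM. Both pairs of groups overlapped. The averaged change was -0.38 ± 0.47 (95% interval -1.40 to 0.64, adjusted p = 0.762), and it was 0.08 without Female sham replicate 1, the library with the highest value. Its counts ran from 6 to 41 per library.

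The GABA-B receptor works as a pair: the product of Gabbr1 binds GABA or baclofen, and that of Gabbr2 carries the receptor to the surface and couples it to the G protein. Gabbr2 was at 101, 129 and 106 CPM in Female sham replicates 1 to 3 and at 59.9, 68.0 and 72.8 CPM in Female SNI replicates 1 to 3. In Male sham replicates 1 to 3 it was at 96.5, 79.3 and 60.4 CPM, and in Male SNI replicates 1 to 3 at 59.3, 149 and 67.3 CPM. The female groups did not overlap, while in males the SNI group held the lowest and the highest of the 6 values. The female change was -0.75 ± 0.28 (95% interval -1.35 to -0.14, adjusted p = 0.212) and the male change 0.22 ± 0.28 (adjusted p = 0.774). Averaged over the sexes it was -0.26 ± 0.20 (adjusted p = 0.562).

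Gabbr1 was at 321, 427 and 360 CPM in Female sham replicates 1 to 3 and at 289, 265 and 293 CPM in Female SNI replicates 1 to 3. It was at 292, 295 and 259 CPM in Male sham replicates 1 to 3 and at 293, 471 and 271 CPM in Male SNI replicates 1 to 3. Again the female groups did not overlap and the male groups did. The log2 change was -0.39 ± 0.18 in females (adjusted p = 0.333), 0.29 ± 0.18 in males (adjusted p = 0.505) and -0.05 ± 0.13 averaged (adjusted p = 0.911). The gene lies on chromosome 17 (37045966 to 37074305, plus strand) and Gabbr2 on chromosome 4 (46662318 to 46991714, minus strand).

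The male values of both subunits rested on Male SNI replicate 2. Without it the averaged change of Gabbr2 was -0.52 ± 0.11 and passed (adjusted p = 0.00552), and the male change turned to -0.31 (adjusted p = 0.475). In females, whose libraries were all kept, leaving it out took the SE of Gabbr2 from 0.28 to 0.15 through the shared estimate of the spread, and Gabbr2 (-0.74 ± 0.15, adjusted p = 0.00540) and Gabbr1 (-0.38 ± 0.11, adjusted p = 0.0377) then passed. Female sham replicate 2, the highest of the Female sham libraries for both subunits, also stood apart. Without both libraries Gabbr2 still passed, averaged (-0.47 ± 0.11, adjusted p = 0.00672) and in females (-0.63 ± 0.15, adjusted p = 0.0154), and Gabbr1 in females did not (-0.27 ± 0.10, adjusted p = 0.133).

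The ratio of Gabbr1 to Gabbr2 counts was 3.19, 3.30 and 3.39 in Female sham replicates 1 to 3 and 4.82, 3.90 and 4.02 in Female SNI replicates 1 to 3. It was 3.03, 3.72 and 4.28 in Male sham replicates 1 to 3 and 4.95, 3.16 and 4.02 in Male SNI replicates 1 to 3. The ratio was higher in every Female SNI library than in every Female sham library, and the male groups overlapped. It describes an unequal change of both transcripts within a library and carries no test here.

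Chrm2 encodes the M2 muscarinic receptor, which acetylcholine uses to inhibit sensory terminals. Its level was 16.3, 11.3 and 13.0 CPM in Female sham replicates 1 to 3 and 8.13, 7.34 and 8.00 CPM in Female SNI replicates 1 to 3. In Male sham replicates 1 to 3 it was 7.80, 14.5 and 11.97 CPM, and in Male SNI replicates 1 to 3 it was 7.07, 23.7 and 6.30 CPM. As for Gabbr2, the female groups did not overlap and the male SNI group held the highest and the lowest value. With all libraries the change was -0.79 ± 0.42 in females (adjusted p = 0.420) and -0.34 ± 0.30 averaged (adjusted p = 0.624). Without Male SNI replicate 2 the averaged change was -0.78 ± 0.19 (adjusted p = 0.0108), and without both libraries that stood apart -0.83 ± 0.19 (adjusted p = 0.00551). The male change moved from 0.11 to -0.77 without Male SNI replicate 2 (adjusted p = 0.197). Exons of Chrm2 (chromosome 6, 36387991 to 36528638, plus strand) overlap those of 9330158H04Rik on the opposite strand, which had at most 0.191 CPM.

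Cnr1 encodes the cannabinoid receptor CB1. It was at 16.0, 12.9 and 8.76 CPM in Female sham replicates 1 to 3 and at 8.71, 8.36 and 9.69 CPM in Female SNI replicates 1 to 3. It was at 12.4, 14.2 and 12.8 CPM in Male sham replicates 1 to 3 and at 10.2, 8.06 and 10.6 CPM in Male SNI replicates 1 to 3. Here the male groups did not overlap, and in females Female sham replicate 3 lay within the SNI range. The estimates of the sexes were close, -0.49 ± 0.24 in females and -0.44 ± 0.24 in males, and their difference was 0.05 ± 0.33 (95% interval -0.67 to 0.76). Averaged over the sexes the change was -0.47 ± 0.17 (95% interval -0.83 to -0.11), with an unadjusted p of 0.0144 and an adjusted p of 0.130, so it was not called. Leaving out 1 library gave -0.57 to -0.36.

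Adra2c and Adra2a encode alpha-2 adrenoceptors, the targets of noradrenaline and clonidine. Adra2c was at 19.3, 15.1 and 21.02 CPM in Female sham replicates 1 to 3 and at 10.5, 16.7 and 11.97 CPM in Female SNI replicates 1 to 3. It was at 18.9, 15.5 and 19.8 CPM in Male sham replicates 1 to 3 and at 15.1, 5.45 and 13.3 CPM in Male SNI replicates 1 to 3. The male groups did not overlap, and in females only SNI replicate 2 lay within the sham range. The averaged change was -0.59 ± 0.22 (95% interval -1.06 to -0.11), with an unadjusted p of 0.0194 and an adjusted p of 0.158, and without Male SNI replicate 2, its lowest library, it was -0.42. Adra2a gave no common direction. Its mean went from 5.12 ± 0.944 to 6.94 ± 0.872 CPM in females (log2 0.44 ± 0.35) and from 6.55 ± 2.88 to 4.48 ± 1.61 CPM in males (-0.55 ± 0.35), with overlapping groups in each sex. The averaged change of Adra2a was -0.06 ± 0.25 (95% interval -0.58 to 0.47), a value near 0 whose sign depended on which library was left out.

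**Figure D2:**
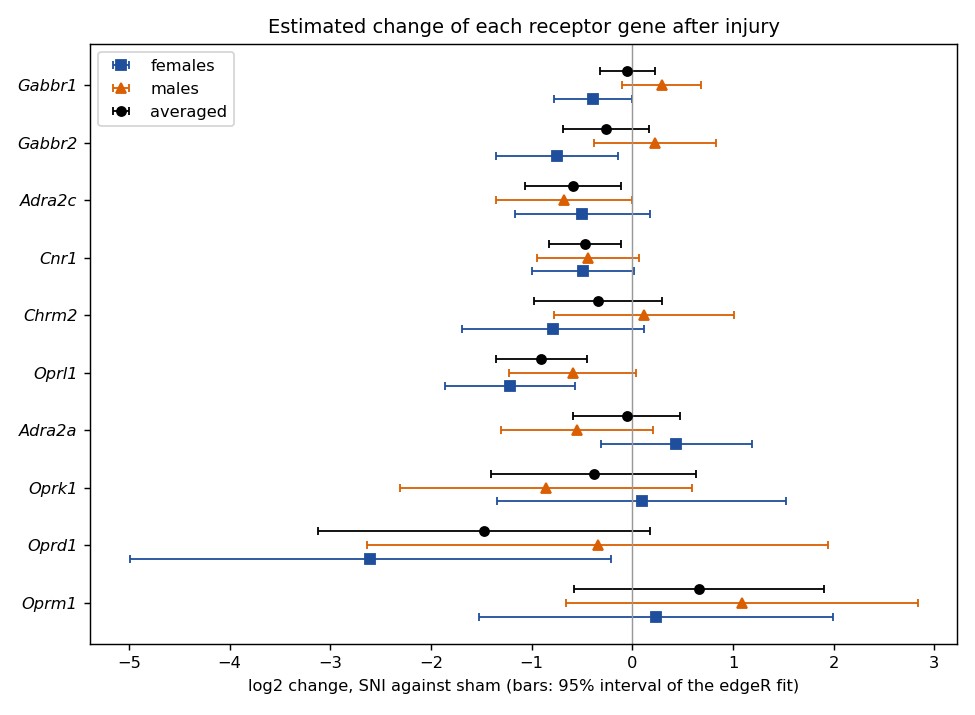
Estimated log2 change of each receptor gene, SNI against sham, in females (squares), males (triangles) and averaged over the sexes (circles), with 95% intervals of the edgeR fit. The averaged intervals of Oprl1, Cnr1 and Adra2c lie below 0, and that of Oprl1, from -1.35 to -0.45, is the one whose adjusted p passed. An interval without 0 goes with an unadjusted p under 0.05, which 2764 of the 15036 tested genes had in the averaged comparison.

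Across the list the SNI libraries lay wholly below the sham libraries for 5 of 10 receptors in females (Oprl1, Oprd1, Gabbr1, Gabbr2 and Chrm2), where this was so for 13.4% of all tested genes. In males it was so for 2 of 10 (Adra2c and Cnr1), against 8.83% of all tested genes. No receptor met it in both sexes, against 2.82% of all tested genes. No receptor had SNI libraries wholly above sham libraries in either sex, where 13.1% of genes did in females and 9.09% in males. The receptors share libraries, so these are not independent counts.

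A difference between the sexes was tested as an interaction, and none of the 10 receptors passed. Over all genes 0 were called by edgeR and 1100 had an unadjusted p under 0.05. Gabbr1 (0.68 ± 0.26, 95% interval 0.13 to 1.23, unadjusted p = 0.0195) and Gabbr2 (0.97 ± 0.40, 95% interval 0.11 to 1.83, unadjusted p = 0.0297) had the lowest unadjusted p among the receptors, and both had an adjusted p of 0.647. Without Male SNI replicate 2 they were 0.38 and 0.43, with an adjusted p of 0.918 for each. Adra2a had the estimate -0.99 ± 0.49 (adjusted p = 0.647).

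In the sham libraries, where 0.0399% of all genes were called between the sexes, none of the receptors was. The estimates, males minus females, ran from -1.28 ± 1.04 for Oprd1 to 0.43 ± 0.66 for Oprk1. The mean of Gabbr1 was 369 ± 53.5 CPM in Female sham and 282 ± 20.1 CPM in Male sham (log2 -0.39 ± 0.18, 95% interval -0.78 to 0.00, adjusted p = 0.938), and that of Gabbr2 was 112 ± 15.2 and 78.7 ± 18.1 CPM (-0.51 ± 0.28, adjusted p = 0.938). Both Female sham means include Female sham replicate 2, the highest of its group for each subunit. For Oprl1 the interval of the difference was -0.57 to 0.68, and for Cnr1 -0.44 to 0.57.

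**Figure D3:**
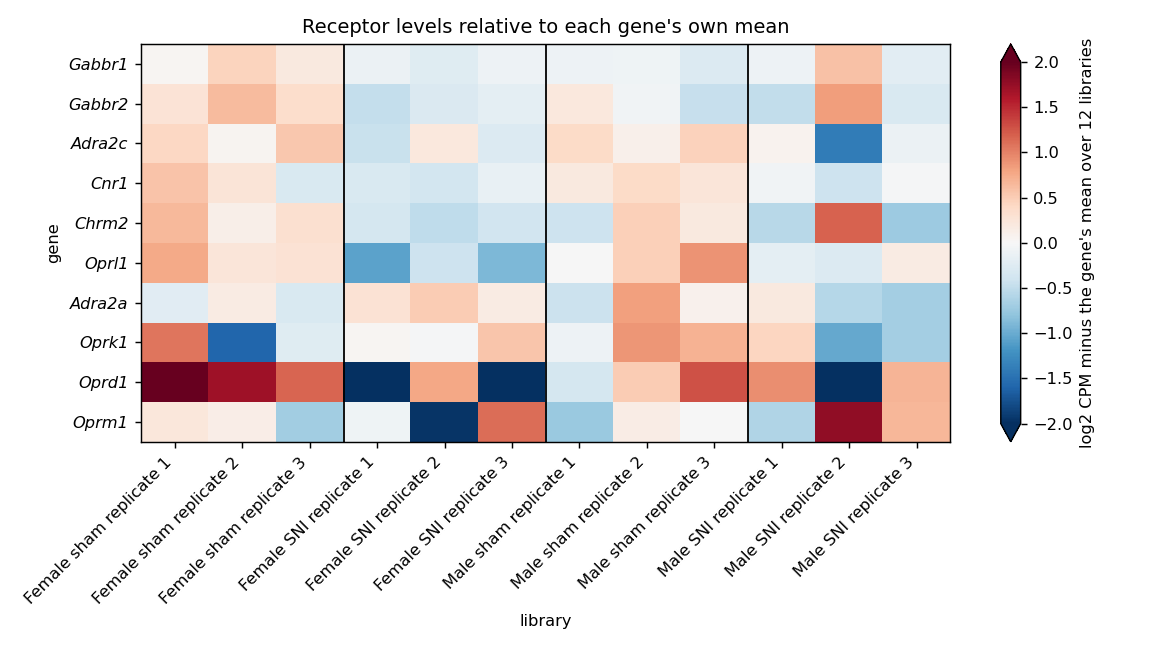
Each receptor's log2 CPM minus its own mean over the 12 libraries, with libraries grouped by sex and operation (red, above the mean; blue, below; colours end at 2 and -2). Male SNI replicate 2 is high for Gabbr1, Gabbr2, Chrm2 and Oprm1 and below the mean for the other 6.

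Male SNI replicate 2 was the highest of the 12 libraries for 4 receptors (Gabbr1, Gabbr2, Chrm2 and Oprm1) and the lowest for 2 (Adra2c and Cnr1). No other library was an extreme for more than 3. Its summed level of the 12 pan-neuronal markers was 19370 CPM, the highest of all libraries, and that of the 8 mechanoreceptor and proprioceptor markers was 4080 CPM, the highest of the SNI libraries. Its 10 nociceptor markers summed to 2496 CPM, the lowest of the Male SNI libraries. Female sham replicate 2 had the highest Female sham sums for pan-neuronal markers (18020 CPM) and for mechanoreceptor and proprioceptor markers (4920 CPM). The part of these differences in the receptor values was not tested.

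**Figure D4:**
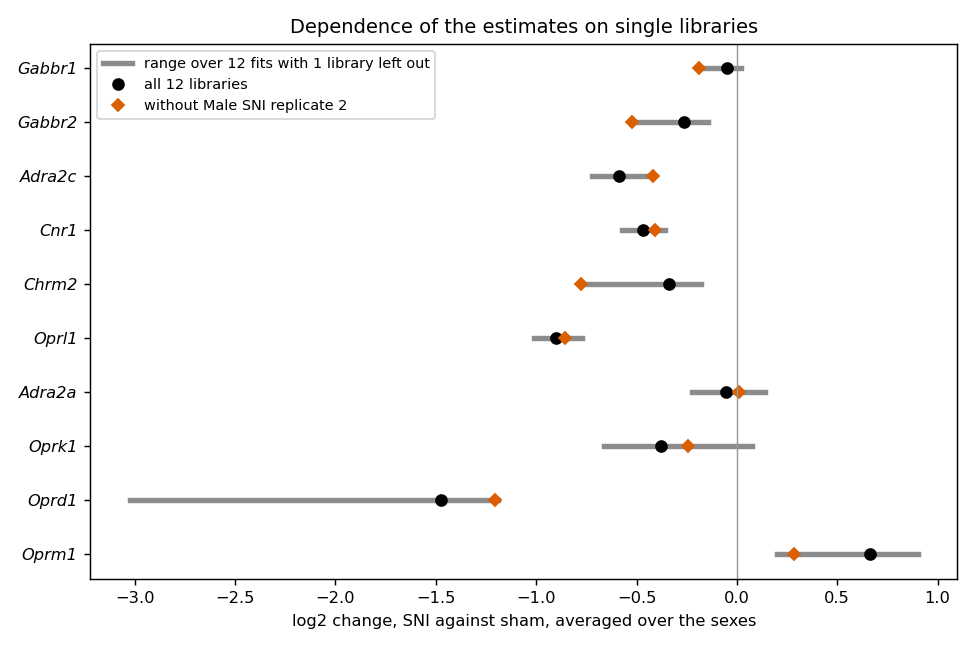
Averaged log2 change of each receptor gene with all 12 libraries (circles), its range over the 12 fits that leave out 1 library (bars), and the value without Male SNI replicate 2 (diamonds). Gabbr2 moves from -0.26 to -0.52 and Chrm2 from -0.34 to -0.78 without that library, while Oprl1 stays between -1.01 and -0.77 throughout.

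With Male SNI replicate 2 left out, 3 of the 10 receptors fell in the averaged comparison (Oprl1, Gabbr2 and Chrm2), where 5.3% of 15349 tested genes fell. In females 3 fell in that fit (Oprl1, Gabbr1 and Gabbr2), where 3.73% of genes fell. With both libraries that stood apart left out, the same 3 fell averaged (5.4% of all genes), and Oprl1, Gabbr2 and Chrm2 (-0.90 ± 0.26, adjusted p = 0.0443) fell in females (3.13% of all genes). Chrm2 in females passed in no fit that left out 1 library and in 1 of the 8 other settings.

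Several cell type markers moved between sham and SNI beside the receptors. The 10 nociceptor markers, among them the sodium channel gene Scn10a, summed to 3064 to 3392 CPM in Female sham, 2356 to 2698 in Female SNI, 3093 to 3321 in Male sham and 2496 to 2725 in Male SNI, and 5 of them fell and 1 rose. The 8 mechanoreceptor and proprioceptor markers, among them the neurofilament gene Nefh, summed to 3663 to 4920 CPM in Female sham, 2793 to 2921 in Female SNI, 4261 to 4536 in Male sham and 2774 to 4080 in Male SNI, and 4 of them fell. Of the 12 pan-neuronal markers, among them Rbfox3, 2 rose and 3 fell, and their sums overlapped between sham and SNI (15100 to 18020 against 15520 to 19370 CPM). The 8 macrophage markers, among them Aif1, summed to 104 to 161 CPM in the sham libraries and 241 to 395 CPM in the SNI libraries, and 7 rose. Of 5 satellite glia markers 1 rose, the glutamine synthetase gene Glul (0.55 ± 0.07, adjusted p = 0.000326), whose exons overlap those of Teddm2. Fabp7 did not pass (-0.12 ± 0.43, adjusted p = 0.942). The 5 sums were 355 to 489 CPM in sham and 516 to 634 CPM in SNI. None of 5 myelinating Schwann cell, 4 endothelial or 4 fibroblast markers was called. The part of these shifts in the receptor values was not tested. Skeletal muscle markers, among them Acta1, reached 1210 CPM in Male SNI replicate 1 against 3.57 to 62.5 in sham, and none passed. T cell markers summed to at most 5.28 CPM, with 3 of the 5 at 0 in 6 or more libraries, and spinal cord glia markers to 3.44 to 9.91 CPM, likewise with 3 of 5 at 0 in 6 or more libraries.

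The genes around the receptors were followed in 10 lists with 114 genes in the files, of which 88 were tested. Of these 4 rose and 4 fell, which is 9.09%, against 6.52% of all tested genes. Without Male SNI replicate 2, 8 of the list genes rose and 10 fell, where 11.5% of all tested genes were called. Without both libraries that stood apart 8 rose and 11 fell, where 12.1% of all tested genes were called. Leaving out any 1 library gave 3 to 18 called.

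Among the transmitters, none of 3 tested opioid peptide precursor genes passed. Penk, the enkephalin precursor, averaged 3.57 ± 1.83 CPM in Female sham against 8.62 ± 0.164 in Female SNI, and 6.63 ± 0.277 in Male sham against 9.49 ± 5.92 in Male SNI (log2 0.90 ± 0.33, adjusted p = 0.143). Pnoc, the precursor of the Oprl1 ligand nociceptin, had an estimate of 0.17 ± 0.45 (adjusted p = 0.912). Among 9 tested endocannabinoid genes (median -0.16), Abhd6, whose product degrades the Cnr1 ligand 2-arachidonoylglycerol, fell (-0.43 ± 0.12, adjusted p = 0.0441). It averaged 59.6 ± 4.15 CPM in Female sham against 38.6 ± 6.52 in Female SNI, and 48.0 ± 2.51 in Male sham against 40.6 ± 8.40 in Male SNI. Its call held only without replicate 1 of Female SNI or replicate 1 or 2 of Male SNI, and without any other library the adjusted p was 0.0633 to 0.124. Mgll, which degrades most of that ligand in brain, did not pass (-0.16 ± 0.09, adjusted p = 0.417).

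Of 9 tested genes of GABA supply and GABA-B partners (median -0.10), Ajap1 rose (1.26 ± 0.30, adjusted p = 0.0234). Its product is a membrane protein that binds GABA-B receptors at their extracellular sushi domains. Ajap1 averaged 1.72 ± 0.652 CPM in Female sham against 4.86 ± 1.17 in Female SNI, and 2.16 ± 0.905 in Male sham against 4.45 ± 1.24 in Male SNI, with no overlap in either sex (Female sham at most 2.16, Female SNI at least 3.51; Male sham at most 3.18, Male SNI at least 3.22). The call of Ajap1 ended, at adjusted p of 0.0525 to 0.0674, when the library left out was replicate 2 or 3 of Female SNI, 1 of Female sham, 1 of Male SNI, or 1 or 2 of Male sham. Kctd8, an auxiliary GABA-B subunit gene, did not pass (-0.27 ± 0.11, adjusted p = 0.207). None of 4 tested genes of noradrenaline and acetylcholine supply or breakdown passed (median -0.30). Th, the rate-limiting enzyme of catecholamine synthesis, was at -0.28 ± 0.16 (adjusted p = 0.400). The tested genes include those of enzymes that break down acetylcholine, so the median is not a measure of supply alone.

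Of the 19 genes for alpha subunits of inhibitory G proteins and for beta and gamma subunits (median 0.07), 2 fell. Gnao1 encodes the alpha subunit of Go, the class through which these receptors inhibit calcium channels. It averaged 1634 ± 23.0 CPM in Female sham against 1221 ± 76.9 in Female SNI, and 1577 ± 39.0 in Male sham against 1325 ± 43.0 in Male SNI, without overlap, and fell by 0.34 ± 0.07 on the log2 scale (adjusted p = 0.00888). Gng8, a gamma subunit gene, averaged 21.9 ± 5.81 CPM in Female sham against 10.2 ± 1.28 in Female SNI, and 21.01 ± 2.59 in Male sham against 14.6 ± 2.99 in Male SNI, and fell by 0.81 ± 0.16 (adjusted p = 0.00750). Both calls held without each of the 12 libraries. Exons of Gnao1 overlap those of 4930488L21Rik, which had at most 2.46 CPM. Gnai1, a Gi alpha subunit gene, had -0.54 ± 0.17 (adjusted p = 0.0828). The Gi alpha subunit genes Gnai2 (0.15 ± 0.08, adjusted p = 0.358) and Gnai3 (0.29 ± 0.26, adjusted p = 0.638) had estimates above 0 and did not pass either.

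Among the effectors, none of 8 tested adenylyl cyclase genes passed (median 0.07; Adcy9 -0.13 ± 0.10, adjusted p = 0.584), nor did either of the 2 tested genes of inwardly rectifying GIRK channels (Kcnj3 -0.41 ± 0.14, adjusted p = 0.0993). Of 7 tested receptor kinase and arrestin genes (median -0.13), 2 rose. Grk6, a kinase that phosphorylates active receptors, averaged 76.8 ± 10.2 CPM in Female sham against 93.0 ± 18.1 in Female SNI, and 59.0 ± 7.12 in Male sham against 108 ± 32.4 in Male SNI (0.57 ± 0.14, adjusted p = 0.0293). Arrb1, which encodes beta-arrestin 1 and takes part in receptor desensitisation, averaged 222 ± 43.5 CPM in Female sham against 291 ± 16.0 in Female SNI, and 202 ± 13.2 in Male sham against 326 ± 105 in Male SNI (0.54 ± 0.14, adjusted p = 0.0293). The call of Grk6 ended when the library left out was replicate 2 or 3 of Female SNI, 1 or 3 of Female sham, or 1 or 3 of Male sham (adjusted p = 0.0581 to 0.0869). That of Arrb1 held only without replicate 2 of Female sham or any 1 of the Male SNI replicates (otherwise adjusted p = 0.0541 to 0.0830).

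Of 16 tested genes for other Gi-coupled receptors (median -0.23), Htr1d fell. It encodes a serotonin receptor that triptans, used against migraine, activate on sensory terminals. It averaged 23.4 ± 3.93 CPM in Female sham against 14.3 ± 2.25 in Female SNI, and 25.6 ± 4.26 in Male sham against 14.98 ± 1.88 in Male SNI, without overlap, and fell by 0.74 ± 0.14 (adjusted p = 0.00621), a call that held without each of the 12 libraries. Adora1, the adenosine A1 receptor gene, did not pass (-0.20 ± 0.09, adjusted p = 0.249). Of 11 tested genes for silencing factors that have been described at Oprm1 after nerve injury, such as Rest, Dnmt1 rose (0.48 ± 0.13, adjusted p = 0.0353), and the list median was 0.05. Dnmt1, the maintenance DNA methyltransferase, averaged 20.5 ± 2.06 CPM in Female sham against 25.0 ± 3.84 in Female SNI, and 19.9 ± 1.97 in Male sham against 32.0 ± 5.01 in Male SNI. Its call held only without Male SNI replicate 2 and ended without any 1 of the other libraries (adjusted p = 0.0520 to 0.107) and under scaling to pan-neuronal genes. Rest itself had 0.21 ± 0.15 (adjusted p = 0.538) and Hdac2 0.05 ± 0.10 (adjusted p = 0.858).

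**Figure D5:**
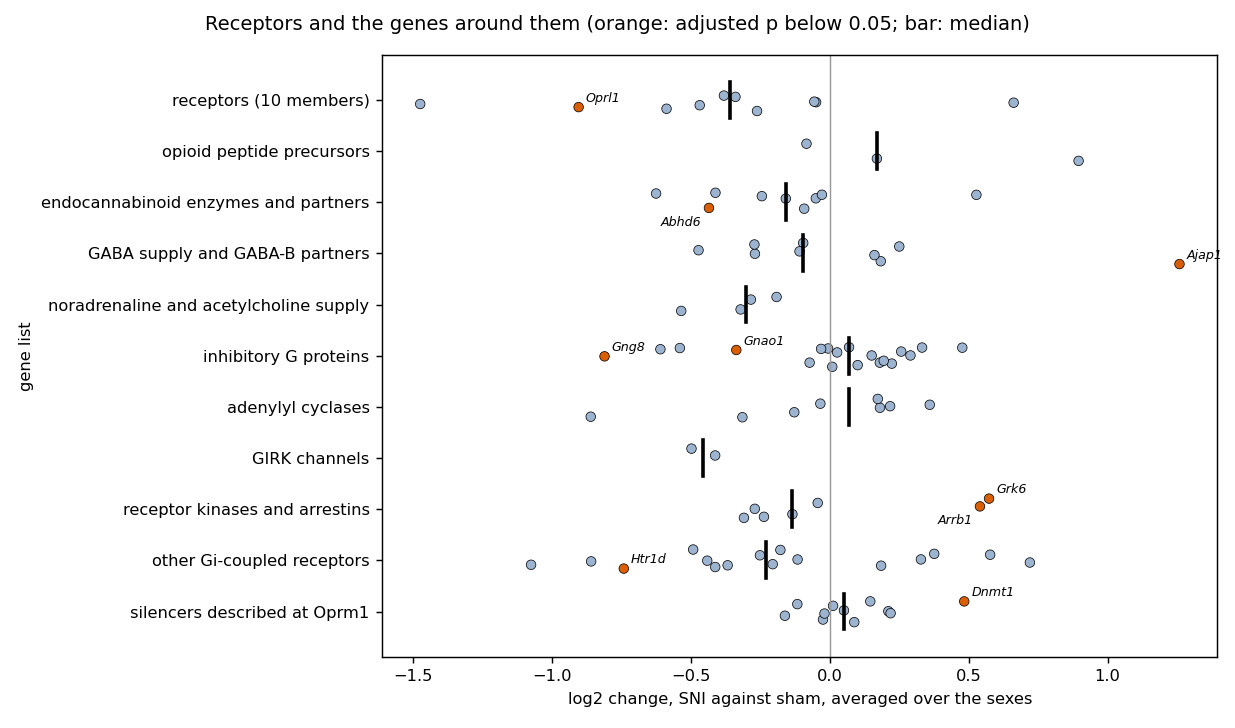
Averaged log2 change, SNI against sham, of every tested receptor gene and of the tested genes of the 10 lists around them (points; vertical position within a list is arbitrary), with list medians as bars and genes at an adjusted p below 0.05 in orange. Oprl1 is the called receptor gene at -0.90, and the 8 other called genes run from Gng8 at -0.81 to Ajap1 at 1.26.

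Among the 5 genes whose profile over the 12 libraries lay closest to that of Oprl1, by the root mean square difference of centred log2 CPM, were Fhit (0.25), Kcna4 (0.26), Kcnmb1 (0.28) and Gria2 (0.30), against a median of 0.68 over all tested genes. Kcna4 and Kcnmb1 encode potassium channel subunits and Gria2 an AMPA-type glutamate receptor subunit. The closest gene to Oprm1 was Scarna17, at 0.44, followed by Nlrc5 (0.57), Gm15787 (0.58), Klhdc9 (0.60) and AI317395 (0.61), against a median of 1.0007. At the few counts of Oprm1 all 5 distances were larger than those of Oprl1, and they describe likeness over these libraries only.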

How the data were processed

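The authors deposited raw counts per gene symbol, 1 table per library, per the file headers (11 headers read "raw count" and 1 "raw data"). Per the labels' protocols, polyadenylated RNA was made into 3′ end libraries with a QuantSeq kit and read from a single end on a NextSeq instrument. The submitters' processing notes name mm10, Bowtie2 and bedtools. How strand, multiply mapped reads and duplicate molecules were treated: not given in the sources used here. Each table held 23282 rows, and where a symbol was repeated (35 symbols) its rows were added up (44 extra rows). The ribosomal precursor Rn45s took 6.14% to 11.2% of the counts. Replicates differed by more than sampling noise, so none was a duplicate.

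Genes were kept by filterByExpr (minimum count 10), scaled by TMM (factors 0.914 to 1.07) and fitted with 1 coefficient per group over all 12 libraries in edgeR 4.0.16 (limma 3.58.1, R 4.3.3; DESeq2 1.42.0 as an alternative). The common coefficient of biological variation came to 0.275. P-values of two-sided quasi-likelihood F tests had Benjamini-Hochberg adjustment over the 15036 genes tested, with calls at an adjusted p below 0.05. Group values are mean ± SD of 3 libraries. The SE of an edgeR log2 change was calculated back from its F test, as the size of the change over the square root of F. The intervals were built symmetrically from that SE, which is rough for genes with few counts. Intervals cover the spread between libraries, and the 3-count floor covers counting error only. The procedure was tested on simulated counts, with changes planted equally in both sexes and only in genes with more counts than Oprm1, Oprd1 or Oprk1. That test does not cover genes with as few counts as these 3. Positions and promoters came from RefSeq on GRCm38.p6, exon overlaps and transcript ends from GENCODE vM21.

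The receptors and all gene lists were chosen with earlier results of these data known. All receptors were named. Of each list around them, the called genes and the gene with the highest mean level were named. Pnoc, Gnai1, Gnai2, Gnai3 and Rest were added after their values were seen. Of the 5 genes closest in profile to Oprl1, 1 is not reported here. Figures were drawn with matplotlib 3.10.9. Alternatives were other size factors, scaling to pan-neuronal genes, no filter, Rn45s left out, DESeq2, voom with quality weights, a replicate block, and left-out libraries; the genes of the lists were added to these alternatives after seeing the data. Replicate numbers were not used as pairs.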

Additional observations from a re-analysis of the deposited data

How the results depend on the processing

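Oprl1 averaged over the sexes passed under all 8 alternatives other than leaving out 1 library. It passed in 8 of the 12 fits that left out 1 library. Over all these fits its adjusted p ran from 0.00206 to 0.0625. The averaged count of called genes, 980, was 2008 with voom quality weights and 1848 without the 2 libraries that stood apart; the count of called receptors, 1, was 3 in both. In females the 435 called genes became 777 with DESeq2, 1562 with voom and 986 without both libraries, and the 1 called receptor became 0 with pan-neuronal scaling, with no filter or with the replicate block, and 3 with voom or without both libraries. In males the 321 called genes became 666 with DESeq2, 693 with voom and 698 without both libraries. The 6 genes called between the sexes in sham became 14 with DESeq2. Leaving out 1 library gave 626 to 1766 genes and 0 to 3 receptors averaged, 155 to 1176 genes and 0 to 3 receptors in females, 137 to 601 genes and 0 receptors in males, 0 for the interaction and 6 to 8 genes in sham. The highest counts averaged and in females came without Male SNI replicate 2; the cause was not tested.

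Estimates that changed sign did not pass in any fit. They were averaged Adra2a (0.17 with voom, 0.0912 without both libraries), Oprm1 in females (-0.0568 with voom), Oprk1 in females (-0.34 without both), and in males Chrm2 (-0.13 with pan-neuronal scaling, -0.55 with voom, -0.76 without both), Oprd1 (0.20 and 0.19) and Gabbr2 (-0.27 and -0.30), the last 2 with voom and without both. Over the fits that left out 1 library, averaged Oprk1 ran from -0.66 to 0.0750, Gabbr1 from -0.19 to 0.0227 and Adra2a from -0.22 to 0.14; in females Oprm1 from -0.69 to 0.71 and Oprk1 from -0.34 to 0.996; in males Oprd1 from -0.81 to 0.18, Gabbr2 from -0.31 to 0.46 and Chrm2 from -0.77 to 0.43.

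Pan-neuronal scaling moved the median log2 change of all genes to -0.18 in males, -0.25 for the interaction and 0.115 between the sexes in sham. With the replicate number as a block, Oprl1 was -0.90 averaged (adjusted p = 0.0287) and -1.23 in females (adjusted p = 0.0620), and 936 genes were called averaged. Correlations of same-numbered libraries ran from -0.06 to 0.35 with a median of 0.00 over 18 pairs; 1 was over 0.1, that of Female sham replicate 2 with Male SNI replicate 2, so the numbers were not taken as pairs. Counts of 0 to 46 per library for Oprd1, and of 3 to 41 for Oprm1, limit what could be detected.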
